A study of Mus musculus with 8 samples.

Results

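The comparison set livers lacking Cpt2 in the liver against wild type livers, by ATAC-seq, an assay that cuts and tags open chromatin with a transposase so that accessible DNA appears as peaks of reads. It used 4 of the 8 libraries of the series, chosen by genotype label: 2 libraries of wild type mice and 2 of mice with the genotype Cpt2 L-/-, a Cpt2 knockout in liver. All were 9-week-old C57BL/6 males fasted for 24 h, and the material was flash-frozen whole liver. The promoter that drove the deletion and whether each library came from a separate animal are not given in the sources used here, so p-values measure the spread between these libraries only. The other 4 libraries (2 of Ppara -/- and 2 of Cpt2 L-/- ; Ppara -/- double knockout mice, same age, sex, strain and fast) took no part in choosing regions and serve below as a separate readout.

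Cpt2 encodes carnitine palmitoyltransferase 2, an enzyme of the inner mitochondrial membrane that turns long-chain acylcarnitines back into acyl-CoA for beta-oxidation. During a fast the liver takes up fatty acids from adipose tissue, oxidises them and makes ketone bodies. The nuclear receptor Ppara binds fatty acids and raises transcription of the genes for their transport, oxidation and ketogenesis. Accessible regions lie at gene start sites and at distal enhancers, and a gene name given to a distal region below means only the nearest protein-coding gene.

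The deposited lists held 28733 and 36141 peaks for the wild type libraries and 39296 and 35908 for the Cpt2 knockout libraries. The means were 32437 ± 5238 and 37602 ± 2396 (SD, n = 2 each), a difference of 5165 that was smaller than the gap between the wild type libraries (exact permutation p = 0.667, two-sided, where 0.333 is the smallest possible). The peaks mapped to 46893 consensus regions, of which 24051 (51.3%) were called in all 4 libraries. Over those 24051 regions, ranks by the deposited −log10 p correlated at 0.835 between the wild type libraries and 0.789 between the Cpt2 knockout libraries, against 0.767 to 0.862 for the 4 pairs that cross genotypes. The lowest 3 of the 6 correlations were the 3 that involve Cpt2 knockout 2, so by rank this library stood apart from the other 3. The number carried in its peak names also differed (4717, against 441, 443 and 446 in the others), and what that number records is not given in the sources used here. By calls, wild type 1 stood apart instead. Its 3 pairs shared 65.3%, 66.1% and 67.8% of the regions called in either library, against 71.0% to 74.0% for the other pairs. The counts of called regions are therefore also given without Cpt2 knockout 2 and without wild type 1.

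Promoters that show the kinds of region found are printed first: the start site of Osbpl3, called in all 4 libraries and ranked higher in both knockout libraries, and the 2 highest ranked promoters called only in each genotype, all 5 chosen after values were seen. Each is the 250 bases before a RefSeq start site (GRCm38.p6, the assembly of mm10), 5′ to 3′, with capitals marking the 21 bases centred on the summit of each library's peak, as far as they lie in these bases.
Osbpl3 (chr6:50456171-50456420, minus strand): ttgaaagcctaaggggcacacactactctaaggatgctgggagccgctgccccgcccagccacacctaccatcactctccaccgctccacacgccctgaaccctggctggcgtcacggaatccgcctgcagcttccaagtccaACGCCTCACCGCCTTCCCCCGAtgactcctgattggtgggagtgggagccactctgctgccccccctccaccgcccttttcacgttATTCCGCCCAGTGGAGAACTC
Insig2 (chr1:121332590-121332839, minus strand): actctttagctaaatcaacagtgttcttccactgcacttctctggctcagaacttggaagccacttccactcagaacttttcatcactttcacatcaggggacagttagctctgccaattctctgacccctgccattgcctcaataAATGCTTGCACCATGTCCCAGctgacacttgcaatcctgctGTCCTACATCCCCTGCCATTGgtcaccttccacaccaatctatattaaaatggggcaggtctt
Habp2 (chr19:56287662-56287911, plus strand): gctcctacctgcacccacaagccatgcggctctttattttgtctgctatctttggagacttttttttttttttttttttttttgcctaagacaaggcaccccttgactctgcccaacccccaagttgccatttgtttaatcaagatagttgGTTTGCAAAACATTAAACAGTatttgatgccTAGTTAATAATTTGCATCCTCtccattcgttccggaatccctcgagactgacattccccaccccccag
Tshz3 (chr7:36697868-36698117, plus strand): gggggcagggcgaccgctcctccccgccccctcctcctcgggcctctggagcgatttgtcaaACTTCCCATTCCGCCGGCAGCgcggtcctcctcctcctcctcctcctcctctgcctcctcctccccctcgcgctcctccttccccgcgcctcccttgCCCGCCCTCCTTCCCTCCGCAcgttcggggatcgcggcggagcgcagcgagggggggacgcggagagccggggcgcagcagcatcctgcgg
Tnfaip8l3 (chr9:54068412-54068661, minus strand): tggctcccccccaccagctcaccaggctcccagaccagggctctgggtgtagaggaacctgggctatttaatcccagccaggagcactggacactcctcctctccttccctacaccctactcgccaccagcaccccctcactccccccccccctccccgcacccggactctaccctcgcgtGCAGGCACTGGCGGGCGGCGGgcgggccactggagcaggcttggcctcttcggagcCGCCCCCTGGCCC
Insig2 encodes an endoplasmic reticulum protein that holds back the sterol-regulated activation of SREBP, and its peak, at 1 of the 3 Insig2 start sites in the table, lay at percentile 59.6 of the list of Cpt2 knockout 1 and 34.1 of that of Cpt2 knockout 2. A percentile here is the rank of a peak by −log10 p within its own library's list, where 100 is the strongest peak. Habp2, a secreted protease of hepatocytes, had its peak at percentiles 26.7 and 42.3 in the knockout libraries. Neither promoter had a peak in any wild type, Ppara knockout or double knockout library. In the other direction, the start site of Tshz3, a zinc finger transcription factor, lay at percentiles 28.7 and 25.1 in the wild type libraries and was also called in both double knockout libraries. The start site of Tnfaip8l3, a phosphoinositide transfer protein, lay at 23.0 and 40.2 in wild type and was called in Ppara knockout 2 and double knockout 2. The G+C content was 47.2% and 42.8% for Insig2 and Habp2, and 74% and 70% for Tshz3 and Tnfaip8l3. A search of both strands for 5 motifs found none in the 5 printed sequences. The nuclear receptor half-site AGGTCA occurs in 14.0% of all 32851 RefSeq windows of this length, and its direct repeat with 1 base between the copies, the element that Ppara binds (DR1, a part of the half-site matches), in 0.0335%. The cyclic AMP response element TGACGTCA occurs in 1.55%, the AP-1 site TGANTCA in 6.75% and the core element TATAAA in 12.4%.

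Peak lists do not show whether an exon was removed, so Cpt2 itself gives only a limited check of the genotype. Cpt2 (chr4:107903982-107923589, mm10) had 3 consensus regions. The region over its start site (chr4:107923217-107923773) was called in all 4 libraries, at percentiles 45.6 and 55.8 in wild type and 59.6 and 47.7 in Cpt2 knockout, and the groups overlapped (difference in normal score −0.11 ± 0.43 SE, limma adjusted p = 1). A region inside the gene (chr4:107921928-107922335) was likewise called in all 4, at 61.7 and 73.8 against 82.0 and 62.9. The third region, chr4:107921363-107921596, was called in Cpt2 knockout 1 alone, at percentile 13.0. Within 10 Mb of Cpt2 on each side, 13 of 528 regions (2.46%) were called only in Cpt2 knockout, against 1 only in wild type, beside 3.83% and 0.542% over all regions.

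A region counts here as called only in Cpt2 knockout when both knockout libraries and no wild type library had a peak in it, and the reverse for wild type. By this rule the set for Cpt2 knockout held 1798 of 46893 regions (3.83%) and the set for wild type held 254 (0.542%). Within genotypes, 12223 regions were called in 1 of the 2 wild type libraries and 12536 in 1 of the 2 Cpt2 knockout libraries, an easier rule to meet. Pair by pair, the wild type libraries shared 67.8% of the regions called in either, and the Cpt2 knockout libraries 71.0%. Pairs that cross genotypes shared 65.3% to 74.0%. The excess of 1544 regions in the knockout direction moved with list length, and wild type 1 had the shortest list. When each library kept only its strongest 28733 peaks, so that the 4 lists were equally long, the sets held 739 (1.97%) and 584 (1.56%) regions. Without wild type 1 the counts were 2479 and 2663, an excess of −184, but there the wild type set needed 1 call and the knockout set 2. Without Cpt2 knockout 2 they were 5821 and 600. Where both genotypes followed the same rule, the excess kept the knockout direction. It was 1544, 155 in lists of equal length and 1018 with a −log10 q of at least 20, so its size was not stable. The counts without a library follow unlike rules for the 2 genotypes, so they cannot decide whether the direction depends on single libraries. With 2 libraries a group no test of these counts can fall below 0.333, and none was made.

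**Figure D1:**
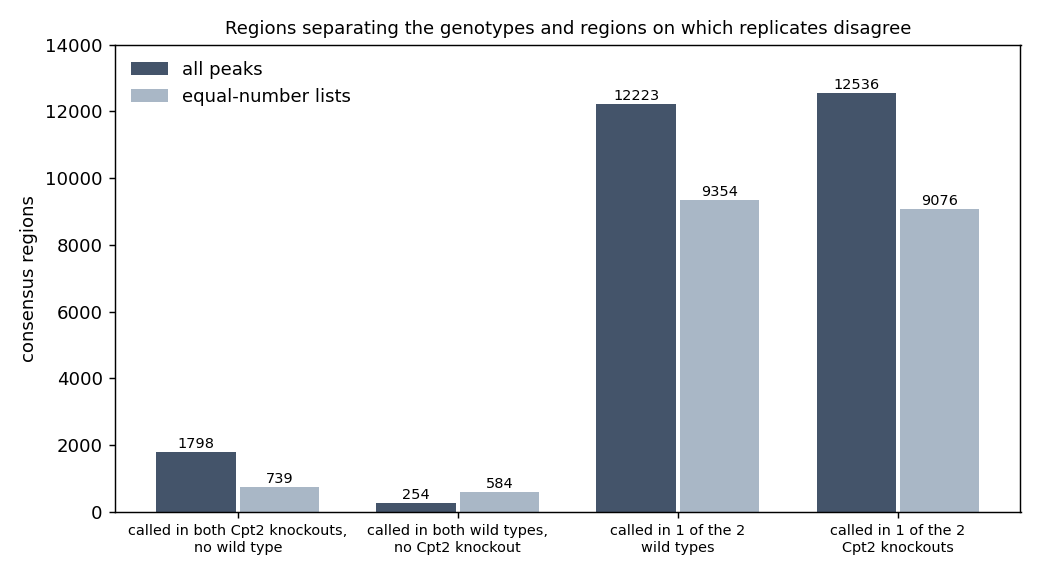
Number of consensus regions (y axis) called in both libraries of 1 genotype and neither of the other, and number called in only 1 of the 2 libraries of a genotype, for all peaks (dark bars) and for lists of equal length (light bars). The replicate disagreements (9076 to 12536) exceed the regions that separate the genotypes (254 to 1798) in both kinds of list. The former follow an easier rule, so the 2 kinds of count are not compared like for like.

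The regions called only in Cpt2 knockout were mostly weak peaks: their median percentile was 19.3 in Cpt2 knockout 1 and 18.9 in Cpt2 knockout 2, and 171 had a −log10 q of at least 20 in both. Those called only in wild type were weaker still in rank, with medians of 13.2 and 11.4.

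Regions called in 1 genotype were ranked by the lower of their 2 percentiles. Of those called only in Cpt2 knockout the first lay inside Erg28 (chr12:85817710-85818084), which encodes an endoplasmic reticulum protein of the sterol synthesis complex, at percentiles 62.4 and 62.1, with no peak in any of the other 6 libraries. Next was a region inside Arl15 (chr13:114068427-114068766), a small GTPase gene, at 67.5 and 59.4. A region 1782 bp from the beta-tubulin gene Tubb2a (chr13:34079790-34080142) lay at 59.2 and 76.2. The nearest gene to chr2:72753916-72754318, at 57.8 and 76.6, was Sp3, a GC-box binding transcription factor, but at a distance of 182112 bp. A region 81 bp from Mettl27, a gene of the methyltransferase-like family (chr5:134942718-134943181), lay at 57.4 and 74.3 and was also called in both double knockout libraries (75.4 and 23.1) and in Ppara knockout 1 (20.5). The remaining 3 were nearest to Tbl1xr1, part of a nuclear corepressor complex, at 59.0 and 57.0 and 668760 bp away, to C2cd2 at 60.4 and 55.9, and to the tyrosine kinase gene Tnk2 at 55.3 and 61.5. All 8, chosen for their high rank, stood in the upper part of both knockout lists while neither wild type list held them.

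The regions called only in wild type reached lower ranks. The highest was 27101 bp from Galntl5, a gene of the N-acetylgalactosaminyltransferase family, at percentiles 33.9 and 39.2 (chr5:25154013-25154339). A region inside Arfgap2 (chr2:91268719-91268989), which encodes a regulator of coat protein vesicles, lay at 39.9 and 33.0. A region 108682 bp from Cebpb (chr2:167799114-167799438), a leucine zipper factor of liver metabolism, lay at 32.8 and 37.7, and a region at the end of Ugt1a5, a glucuronidation enzyme gene (chr1:88166521-88166795), at 32.4 and 32.8. The other 4, nearest to Snx10, Ust, Wwox and 9530003J23Rik, lay between 30.3 and 46.9. No value of these 8 regions passed 46.9, whereas the 8 in the knockout direction began at 55.3. These were the highest ranked of 254 and of 1798 regions, and the larger set can reach higher ranks for that reason alone. The difference was not tested.

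**Figure D2:**
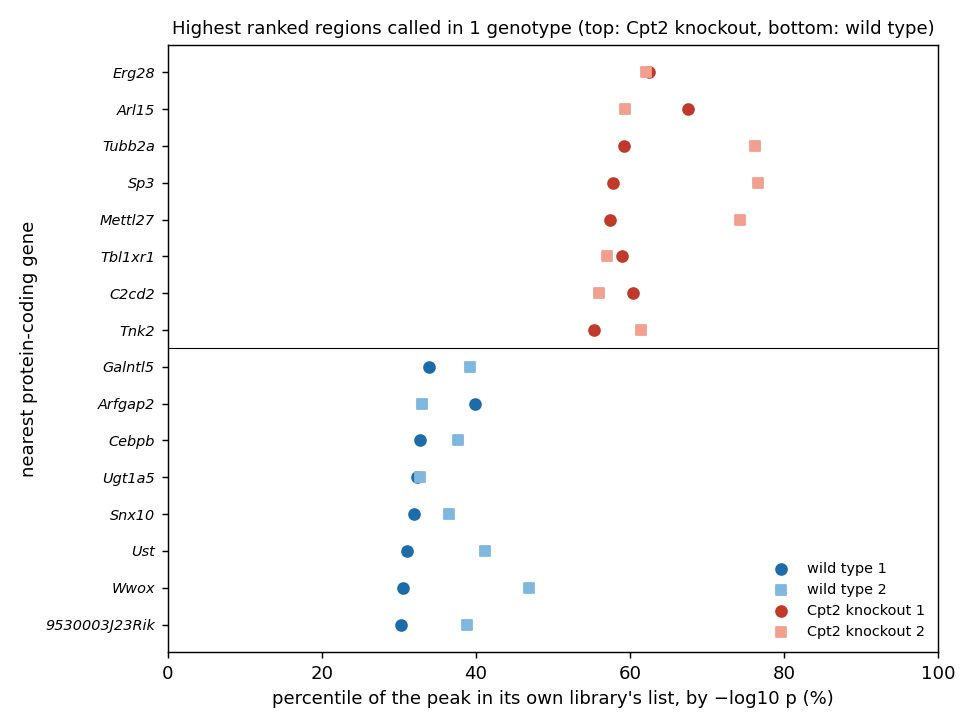
Percentile of the peak in each library's own list (x axis, %) for the 8 highest ranked regions called only in Cpt2 knockout (above the line) and the 8 called only in wild type (below it), by nearest gene; a library with no symbol had no peak. The knockout regions lie between 55.3 and 76.6 and the wild type regions between 30.3 and 46.9. They are the highest ranked of 1798 and of 254 regions, so their ranks are not compared like for like.

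The regions called in 1 genotype also lay in different places. Of those called only in Cpt2 knockout, 10.3% lay within 1 kb of an end of a protein-coding gene, 51.1% inside a gene and 38.5% outside genes. Of those called only in wild type, 37.4% lay within 1 kb of a gene end, beside 26.8% of all 46893 regions and 38.6% of those called in all 4. In the lists of equal length the shares at gene ends were 11.4% and 32.2%, beside 29.9% of all regions called in them. Each library's own share at gene ends was 36% and 31.2% in wild type and 28.6% and 31.2% in Cpt2 knockout, and it was highest in the shortest list (wild type 1) and lowest in the longest (Cpt2 knockout 1). With lists of equal length it was 36% and 33.9% against 32.4% and 33.8%. The part of each library's own mix in the difference between the 2 sets was not tested.

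Promoter windows were also counted. A window of 250 bases before to 50 after a RefSeq start site was overlapped by 49 of 1737 regions called only in Cpt2 knockout (2.82%, leaving out chromosome 18, for which no promoters were used) and by 46 of 247 called only in wild type (18.6%). The 54 windows of protein-coding genes under the former had a median G+C content of 53.6% over the 250 upstream bases and 9 CpG dinucleotides. The 51 windows under the latter had 67.6% and 21. The medians were 61.6% and 18 under regions called in all 4 libraries, and 55.6% and 10 over all 21262 windows. In lists of equal length they were 50.8% and 10.5 for 30 windows against 64.4% and 18 for 147.

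Some genes had several regions called only in Cpt2 knockout. Myc, the growth-promoting transcription factor, had the most, with 5 of its 38 regions, at distances of up to 359757 bp. Ebf1 and Ets1 (transcription factors of lymphoid cells), Itpr1 (an endoplasmic reticulum calcium channel), Kalrn, Sgms1 (sphingomyelin synthase) and Tcf7l2 (a Wnt pathway factor) had 4 each. They had 9, 18, 33, 22, 27 and 21 regions in that order, and Adck5 had 3 of 5. These are the highest counts among 14356 genes, beside 3.83% over all regions, and genes with many regions can reach them by number alone. In lists of equal length Myc had 2 such regions, against 1 called only in wild type, Itpr1 and Adck5 had 1 against 1 each, and Kalrn had 0 against 1. The other 4 genes had 0 in the knockout direction. In the wild type direction Gm38510 and Tmem108 had 2 each, and no gene had more.

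The regions called in all 4 libraries carried a value in each, and these were compared by rank. Each library's −log10 p values were ranked among the 24051 regions and turned into normal scores, so that a difference of 1 is 1 SD of a library's own scores, and Cpt2 knockout was compared with wild type by limma. No region passed an adjusted p of 0.05 in either direction (0% higher and 0% lower), and the smallest adjusted p was 0.284. At an unadjusted p under 0.05 there were 567 higher (2.36%) and 428 lower (1.78%). The median absolute difference between the group means was 0.25, beside a median SE of 0.39 for that difference. The SD between single replicates was 0.41 in wild type and 0.46 in Cpt2 knockout. Both knockout ranks lay above both wild type ranks in 3673 regions (15.3%) and below both in 3852 (16%). A difference of at least 1 was seen in 644 regions and of at least 2 in 2. The count changed with single libraries. Without Cpt2 knockout 1, where Cpt2 knockout 2 alone stood for its genotype, 103 regions passed higher and 151 lower in limma, and without Cpt2 knockout 2 itself 1 passed higher (nearest to Foxp4) and 9 lower.

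The 8 regions with the smallest p in the higher direction are given as a description. The smallest was at chr17:54678084-54678575, 379046 bp from Slc5a7, the gene of the choline transporter of nerve endings. Its −log10 p was 17.5 and 51.7 in wild type and 106 and 153 in Cpt2 knockout, with no overlap of the groups, and the difference was 1.90 ± 0.37 (SE, limma adjusted p = 0.284). It was the only region to pass when ranks of the deposited fold were used in place of −log10 p (adjusted p = 0.0494 by limma). No Ppara knockout or double knockout library had a peak there. The region nearest to Ripk2, a kinase of innate immune signalling, had −log10 p of 18.5 and 42.3 against 91.8 and 114. A region inside Igsf11, which encodes a cell adhesion protein, had 20.8 and 52.1 against 94.3 and 125. The other 5 were nearest to Tmem167, Dnase1, Ndfip2, Osbpl3 and Skap1, and the differences of the 8 ran from 1.49 to 2.11.

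In the lower direction the smallest p was at the end of Tmem50a, a membrane protein gene (chr4:134897183-134897754). Its −log10 p was 125 and 115 in wild type against 74.0 and 20.8 in Cpt2 knockout, so the knockout libraries lay far apart from each other, and the difference was −1.74 ± 0.38 (SE, limma adjusted p = 0.690). A region inside Pmfbp1, a gene of the sperm tail, had 98.9 and 57.6 against 23.2 and 28.9. At an end of Slc22a29, of the organic anion transporter family, the values were 250 and 184 against 153 and 82.8. At an end of Cuta, a homolog of a bacterial metal tolerance gene, they were 93.8 and 125 against 77.1 and 39.0. The groups did not overlap in any of these 4 regions, nor in the 4 nearest to Fam174a, Pnck, Ddx18 and Neto1, and the 8 differences ran from −1.74 to −0.93. Of these 8, Neto1, Pmfbp1 and Pnck passed without Cpt2 knockout 2, and Tmem50a, Slc22a29, Cuta, Fam174a and Pmfbp1 without Cpt2 knockout 1, where all 8 of the higher regions passed too.

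**Figure D3:**
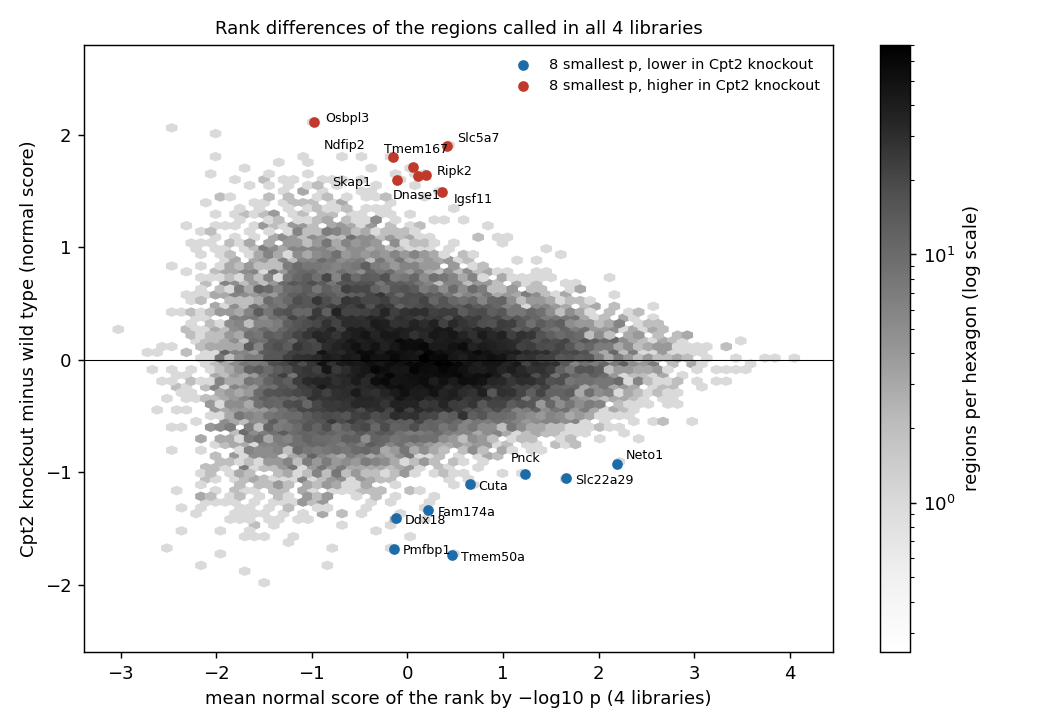
Difference in normal score between Cpt2 knockout and wild type (y axis, SD of a library's scores) against the mean score over 4 libraries (x axis) for the 24051 regions called in all 4; grey hexagons give the number of regions on a log scale, and coloured points are the 8 regions with the smallest p in each direction, by nearest gene. The cloud is centred near 0, the coloured points run from −1.74 to 2.11, and no region passed an adjusted p of 0.05.

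Osbpl3, on chromosome 6 (chr6:50293327-50456354, minus strand), encodes an oxysterol-binding-related protein, a family that carries lipids between membranes at contact sites. It was singled out after its values were seen, because 1 of its regions is among the 8 above and another was called only in Cpt2 knockout. Its start site region (chr6:50455631-50456448) lay at percentiles 6.00 and 4.35 in wild type and 54.1 and 54.9 in Cpt2 knockout, in double knockout 1 at 21.2, and had no peak in double knockout 2 or in either Ppara knockout library. The groups did not overlap, and the difference in normal score was 1.76 ± 0.56 (SE, limma unadjusted p = 0.00382, adjusted p = 1). The region 97.6 kb downstream, inside the gene (chr6:50358334-50358871), lay at 9.59 and 5.25 in wild type and at 58.6 and 80.5 in Cpt2 knockout. Its difference of 2.11 ± 0.53 was the largest among the 24051 shared regions (limma unadjusted p = 0.000362, adjusted p = 0.824). Both double knockout libraries had a peak there (45.8 and 25) and neither Ppara knockout library did. The region at 17.1 kb (chr6:50438896-50439242) was called only in Cpt2 knockout, at 38.9 and 68.6, and again in both double knockout libraries (28.7 and 29.7) but in no Ppara knockout library. Its neighbour at 18.1 kb (chr6:50437810-50438280) was called in all 8 libraries, at 70.6 and 83.1 in wild type and 89.9 and 86.2 in Cpt2 knockout. At that region the difference was 0.37 ± 0.30 (SE, limma adjusted p = 1). Of the 6 regions, 3 therefore ranked higher in both knockout libraries (percentiles 38.9 to 80.5, from below to above mid-list) than in wild type. In wild type they lay at or below percentile 9.59 or had no peak. The other two (74.4 and 143.4 kb) were called in 1 library each.

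**Figure D4:**
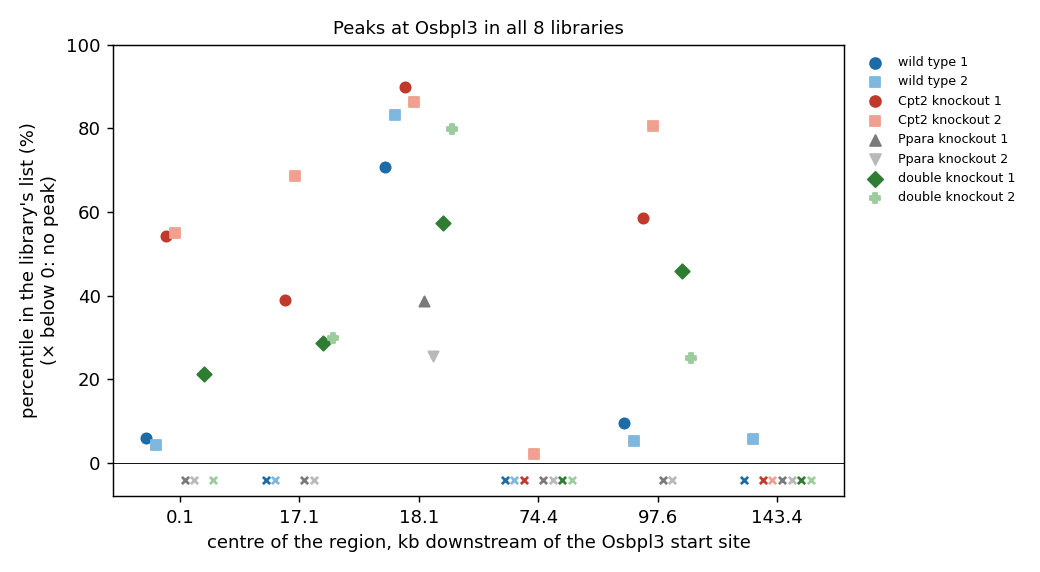
Percentile of the peak in each of the 8 libraries' own lists (y axis, %) at the 6 consensus regions of Osbpl3, placed by the distance of their centre from the start site (x axis, kb, not to scale); crosses below 0 mark libraries without a peak. At 0.1, 17.1 and 97.6 kb the Cpt2 knockout libraries lie between 38.9 and 80.5, and the wild type libraries at 9.59 or below or without a peak.

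Regions were next grouped by gene lists, each region going to its nearest protein-coding gene. Some lists share genes, such as Cebpb, Per1 and Alb, so their counts share regions and are not independent. The list counts are read beside the 3.83% and 0.542% over all regions, since the lists differ in length between the genotypes. Counts in lists of equal length are read beside 1.97% and 1.56% of the 37532 regions called in those. No region of any list passed the adjusted p of 0.05 in limma.

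Of 350 regions at Ppara target and fatty acid oxidation genes, 15 (4.29%) were called only in Cpt2 knockout, against 0 only in wild type, close to the share over all regions. In lists of equal length they were 6 and 1 of 292. At an unadjusted p under 0.05, 5 of its 199 shared regions were higher and 5 lower, and the median difference was 0.05, beside −0.01 over all 24051. Both knockout ranks lay above both wild type ranks in 27 of the 199 and below them in 32. The highest ranked of those called only in Cpt2 knockout was 34037 bp from Bdh1, a ketone body dehydrogenase (chr16:31492938-31493247), at percentiles 41.0 and 35.9. A region 8972 bp from Pdk4, a kinase that shuts off pyruvate oxidation in fasting, lay at 50.8 and 29.6, and 1 at 24726 bp from the acyl-CoA synthetase gene Acsl1 at 27.5 and 47.0. Fabp2, a fatty acid binding protein gene, had a region called only in Cpt2 knockout (34.6 and 32.8) and a shared region over its end (chr3:122895206-122895686) with −log10 p of 14.9 and 23.2 in wild type and 49.3 and 81.7 in Cpt2 knockout. A region inside the coactivator gene Ppargc1a had 49.3 and 52.6 against 134 and 113. The start of Ppara itself (chr15:85734711-85736214) had 108 and 120 against 74.0 and 65.0, a difference of −0.83 ± 0.30 (limma adjusted p = 1). The groups did not overlap in these 3 shared regions, and none passed the adjusted test. A region 124457 bp from Eci2, an enoyl-CoA isomerase gene (chr13:35151572-35152153), had 59.9 and 117 against 77.4 and 17.5. Its −log10 p values overlapped, but both knockout ranks lay below both wild type ranks, with a difference of −1.40 ± 0.43 (limma unadjusted p = 0.00253, adjusted p = 1).

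Lipid droplet and lipolysis genes had 8 of 132 regions (6.06%) called only in Cpt2 knockout, against 0 only in wild type. With peak lists of equal length this gene list had 6 and 0 of 115. Of its 79 shared regions, 4 were higher and 0 lower at an unadjusted p under 0.05, with a median difference of 0.08. Both knockout ranks lay above both wild type ranks in 20 of them and below in 12, beside 15.3% and 16% over all shared regions. Plin2, which encodes the main coat protein of hepatocyte lipid droplets, had a region 1561 bp away (chr4:86671778-86672098) at percentiles 44.4 and 51.4 in Cpt2 knockout and no peak in the other 6 libraries. Lpin1, a phosphatidate phosphatase gene, had a region inside it at 51.5 and 39.1. Hilpda, an inhibitor of adipose triglyceride lipase, had a region 25566 bp away at 37.8 and 54.2. At the end of Fitm2, a gene for droplet budding, a region lay at 27.3 and 27.4. Among shared regions, 1 at 7891 bp from Hilpda (chr6:29264207-29264597) had −log10 p of 12.6 and 17.8 in wild type and 50.8 and 38.3 in Cpt2 knockout. A region 17584 bp from Dgat2, the last enzyme of triglyceride synthesis, had 17.9 and 38 against 66.2 and 73.4. In these regions of Hilpda and Dgat2 the groups did not overlap, and both had a limma adjusted p of 1. In the lower direction, a region inside Lpin1 (chr12:16633242-16633645) had 69.2 and 95.7 against 85.5 and 40.5, a difference of −0.63 ± 0.33. Its −log10 p values overlapped, while both knockout ranks lay below both wild type ranks. The end of Plin3, another droplet coat protein gene (chr17:56290078-56290805), had 41.7 and 57.0 against 67.9 and 18.1, with overlapping groups and a difference of −0.74 ± 0.45. Both again had a limma adjusted p of 1.

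Fasting hepatokine and stress response genes had 2 of 75 regions (2.67%) called only in Cpt2 knockout, against 0 only in wild type. They were 47130 bp from Atf3, a stress-induced transcription factor, at percentiles 16.7 and 51.2, and 4496 bp from Gdf15, a stress hormone gene, at 13.4 and 36.4. A region 3968 bp from Fgf21, the fasting hormone induced by Ppara, had −log10 p of 38.2 and 42.2 in wild type and 50 and 14.9 in Cpt2 knockout, so the groups overlapped. A region 33406 bp from Igfbp2, a binding protein of insulin-like growth factors, had 67.5 and 106 against 170 and 165, without overlap (limma adjusted p = 1). Antioxidant response genes had 7 of 102 regions (6.86%) called only in Cpt2 knockout, against 0 only in wild type. Lists of equal length gave 1 and 1 of 86. Of the 7, the highest ranked was inside Osgin1, at 38.9 and 19.7, and 2 lay inside Me1, the gene of malic enzyme.

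Gluconeogenesis and insulin response genes had 11 of 251 regions (4.38%) called only in Cpt2 knockout, against 3 (1.20%) only in wild type. Lists of equal length gave 5 and 8 of 213. A region 8946 bp from the insulin receptor gene Insr was called only in Cpt2 knockout at percentiles 38.2 and 45.7. A region 11428 bp from G6pc, which encodes glucose-6-phosphatase, was called only in wild type at 29.1 and 28.8. Among shared regions, 1 at 48941 bp from Irs2, an insulin receptor substrate, had −log10 p of 12.6 and 17.1 against 35.2 and 47.9. A region inside the clock gene Per1 had 23.0 and 43.2 against 18.9 and 16. The list thus held regions in both directions, and which direction was more frequent changed with list length.

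Fatty acid and cholesterol synthesis genes had 4 of 177 regions (2.26%) called only in Cpt2 knockout, against 0 only in wild type. Lists of equal length gave 5 and 3 of 159. The 4 were inside Lss (lanosterol synthase, percentiles 66.8 and 35.4), at the printed Insig2 promoter, and 87824 and 14299 bp from Elovl6 and Fads2, genes of fatty acid elongation and desaturation. A shared region 66820 bp from Insig1 had −log10 p of 35.2 and 45.6 in wild type and 95.5 and 94.7 in Cpt2 knockout. A region inside Fdft1, the gene of squalene synthase, had 166 and 244 against 185 and 97.2, with overlapping −log10 p but both knockout ranks below both wild type ranks. A region 9165 bp from Scd2, a stearoyl-CoA desaturase gene, had 29.8 and 22.2 against 18.5 and 8.54, a difference of −1.90 ± 0.67 (limma adjusted p = 1). The median difference of the list was −0.12, and both knockout ranks lay above both wild type ranks in 13 of its 102 shared regions and below in 26. Hepatocyte lineage transcription factors had 6 of 246 regions (2.44%) and 2 (0.813%), and 2 and 5 of 215 in lists of equal length. Cebpb held regions of both kinds, the wild type region named above and 1 at 29125 bp that was called only in Cpt2 knockout (21.2 and 39.1). Core circadian clock genes had 2 of 128 (1.56%) and 0, with 4 shared regions higher and 4 lower at an unadjusted p under 0.05. With peak lists of equal length they had 1 and 3 of 110.

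Immediate early and AP-1 genes, which respond within minutes to growth and stress signals, had 13 of 162 regions (8.02%) called only in Cpt2 knockout, against 1 (0.617%) only in wild type. In lists of equal length the counts were 6 and 2 of 127. Within 5 kb of the gene they were 1 and 1 of 61, beside 1225 and 191 of 34627 over all such regions. Of the 13, 5 were nearest to Myc. The highest ranked were 137435 bp from Myc (percentiles 35.6 and 39.7), 180854 bp from Jun (34.6 and 62.7), 26025 bp from Fos (31.2 and 53.0) and 2025 bp from Klf10 (36.6 and 29.5). A shared region 44114 bp from Ier3 had −log10 p of 11.4 and 13.2 in wild type and 25 and 45.2 in Cpt2 knockout. The end of Klf10 itself (chr15:38298913-38299833) had 131 and 152 against 97.6 and 102, the opposite direction. Neither passed the adjusted test (limma adjusted p = 1 for both).

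Liver secreted protein genes had 8 of 140 regions (5.71%) called only in Cpt2 knockout, against 1 (0.714%) only in wild type. With peak lists of equal length this gene list had 1 and 3 of 118. Both knockout ranks lay below both wild type ranks in 26 of its 81 shared regions and above in 5, beside 3852 and 3673 of 24051 over all shared regions. The region at an end of Alb (chr5:90476586-90478083), the albumin gene, had −log10 p of 70.2 and 80.7 in wild type and 60.8 and 32.9 in Cpt2 knockout, a difference of −0.90 ± 0.35 (limma adjusted p = 1). The region inside Serpinc1, which encodes antithrombin, had 63.1 and 110 against 67.6 and 43.9, with overlapping −log10 p but both knockout ranks below both wild type ranks. Serpina1a, an alpha-1-antitrypsin gene of a family of near-identical copies, had 2 regions of the knockout kind and 1 of the wild type kind, and reads there may be shared with its copies.

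Cell type markers gave the following. Hepatocyte markers had 6 of 88 regions (6.82%) called only in Cpt2 knockout, against 0 only in wild type. With lists of equal length they had 1 and 1 of 74. Both knockout ranks lay above both wild type ranks in 4 of their 50 shared regions and below in 12. They were called at 65.9% and 76.1% of their regions in wild type and 85.2% and 79.5% in Cpt2 knockout. All 10 of these marker genes had a region. Alb, Apoa1, Apob, Serpina1c and Ttr are also in the list of liver secreted protein genes, and Hnf4a and Tat are in other lists. The hepatocyte marker counts therefore repeat regions already counted above. Endothelial markers had 8 of 80 (10.0%) called only in Cpt2 knockout, against 1 (1.25%) only in wild type. Their regions were called at 38.8% and 48.8% in wild type and 76.3% and 61.3% in Cpt2 knockout, against 60.1%, 75.9%, 82.2% and 75.4% for all regions. In lists of equal length the endothelial shares were 60.8% and 39.2% against 60.8% and 54.9%, so the groups no longer separated. Both knockout shares stayed higher for Ppara target genes (76.0% and 77.4% against 82.2% and 80.5%) and lipid droplet genes (77.4% and 73.9% against 82.6% and 80.9%). This also held for gluconeogenesis genes and for macrophage markers (3 regions). For hepatocyte lineage transcription factors both were lower (79.1% and 79.1% against 77.2% and 72.1%). Of 51 endothelial regions in peak lists of equal length, 2 were called only in Cpt2 knockout, against 0 only in wild type. Vwf, the von Willebrand factor gene, gave the highest ranked of them (chr6:125574994-125575442), at percentiles 54.0 and 89.8, also called in Ppara knockout 1 (69.4) and both double knockout libraries (76.0 and 90.5). In the full lists Vwf had 2 regions called only in Cpt2 knockout. Pecam1 and Stab2, an adhesion molecule and a scavenger receptor of sinusoids, had 1 and 2, and Erg and Kdr had 1 each. Flt1 had 1 and also held the 1 endothelial region called only in wild type. Cdh5, Clec4g, Egfl7, Eng, Lyve1, Sox17, Tek and Tie1 had no region called in 1 genotype. Macrophage markers, of which 5 of 12 genes had a region, had 1 of 9, inside Spi1, a myeloid transcription factor. Stellate cell markers had 0 of 19, lymphocyte markers 0 of 13, and cholangiocyte markers 0 of 21 with 1 only in wild type. In whole liver, fewer cells of a type and less open chromatin per cell cannot be told apart, and the part of endothelial cells in the regions called only in Cpt2 knockout was not tested.

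**Figure D5:**
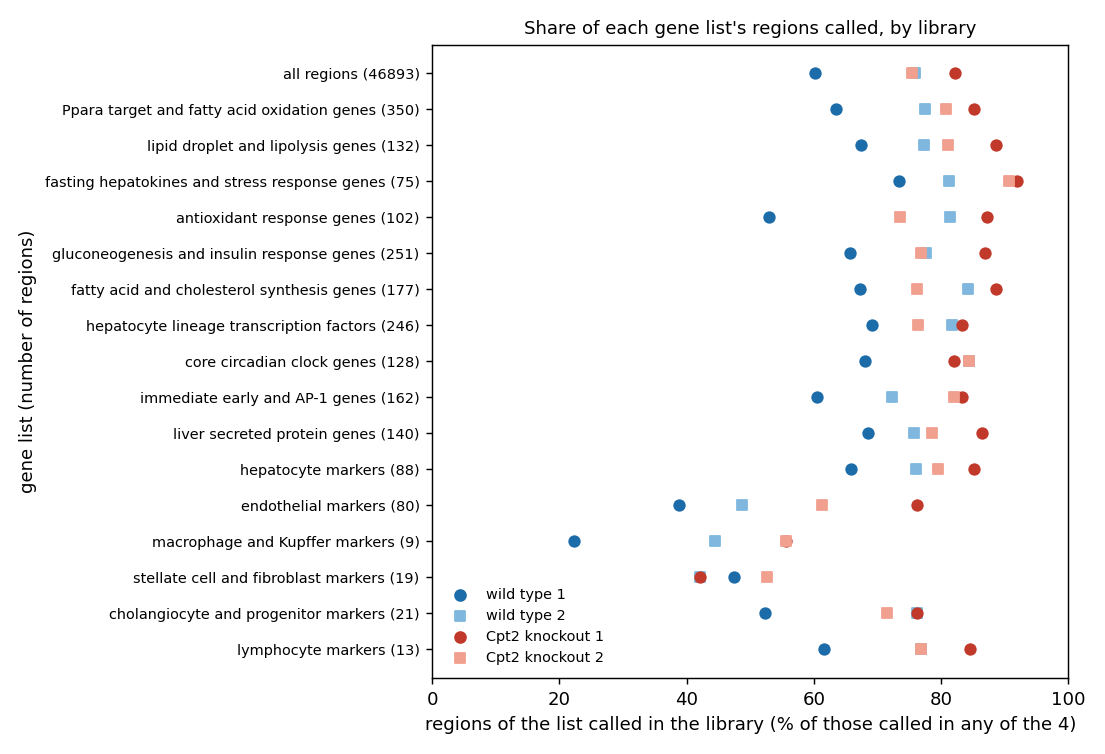
Share of the regions of each gene list called in each library (x axis, % of the list's regions called in any of the 4, whose number is in brackets), for wild type (blue) and Cpt2 knockout (red). For endothelial markers the knockout libraries (76.3% and 61.3%) lie above the wild type libraries (38.8% and 48.8%). Both knockout libraries also lie above both wild type libraries for Ppara target, lipid droplet, hepatokine and immediate early genes. The same holds for liver secreted protein genes and for hepatocyte and macrophage markers. Over all regions the shares are 60.1% and 75.9% in wild type and 82.2% and 75.4% in Cpt2 knockout.

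The Ppara knockout and double knockout libraries, which took no part in choosing regions, form a second contrast for the loss of Cpt2. Regions called only in Cpt2 knockout were called at 11.6% and 7.79% in the Ppara knockout libraries and at 15.5% and 11.2% in the double knockout libraries, a mean difference of 3.67 percentage points. For regions called only in wild type the shares were 9.06% and 12.6% against 12.6% and 8.27%, a difference of −0.39 points. For the other 44841 regions they were 42.2% and 37.4% against 45.8% and 36.9%, or 1.55 points. The shares overlapped between the genotypes in all 3 sets. With lists of equal length the differences were 5.28, −1.63 and 1.85 points. Of the 1798 regions, 48 were called in both double knockout and no Ppara knockout library and 6 (0.334%) the other way round, beside 2.19% and 1.52% of the other 44841 regions. The 48 are 2.67% of the regions. By number the 2 directions were 48 and 6, beside 981 and 680 among the other regions. In lists of equal length they were 27 and 6, beside 912 and 638. The sets differ in how often these 4 libraries called them at all, so shares of all regions are not compared like for like. The difference was not tested. A further 1333 (74.1%) of the 1798 were called in none of these 4 libraries. That share was 74.0% for regions called only in wild type and 43.4% for the other 44841 regions. These 4 lists were shorter, with 18132 to 22715 peaks, against 28733 to 39296 in the compared libraries. The part of list length in these shares was not tested. The 5 highest ranked of the 48, chosen after their values were seen, included the Osbpl3 region at 17.1 kb. The others were the regions nearest to Tbl1xr1 (percentiles 49.0 and 51.2 in double knockout), to the ectonucleotidase gene Enpp3 (52.2 and 39.1), to the corepressor gene Cbfa2t3 (60.3 and 74.1) and to Zcchc8 (40.2 and 42.5), a part of an RNA decay complex. In Cpt2 knockout 1 these 5 regions lay between 36.5 and 59.0.

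A fit over the 11258 regions called in all 8 libraries compared the effect of losing Cpt2 with and without Ppara. Cpt2 knockout against wild type had 0 regions past an adjusted p of 0.05 in limma (301 at an unadjusted p under 0.05), and double knockout against Ppara knockout had 121 higher (1.07%) and 36 lower (0.32%). The difference between the 2 contrasts passed in 0 regions (0%), with a smallest adjusted p of 0.0968 and 994 regions at an unadjusted p under 0.05. The 2 effects were therefore not shown to differ at any single region.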

How the data were processed

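ATAC-seq peak lists of 8 mouse liver libraries were used, 4 of them for the comparison. Reads were aligned with BWA to mm10 and peaks called with MACS2 2.1.0, per the submitters' processing notes, separately for each library, per the peak names in the files. Filters and depth are not given in the sources used here. For each peak the deposited lists give a fold ratio over background, a −log10 p-value, a −log10 q-value and a score, which the authors' lists set at 10 times −log10 p rounded down (99.9949% to 100% of peaks). The authors' values were used only to rank or filter peaks within a list. The lowest −log10 p of the 4 lists was 7.13 to 7.82. A further deposited table gave positions of 49587 consensus regions and no signal.

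A library called a region when at least 1 bp of it lay under a peak. Gene positions were RefSeq's on GRCm38.p6 (21896 protein-coding genes, neither strand nor exons), start sites from a RefSeq promoter table on the same assembly. Shared regions were tested with limma 3.58.1 (R 4.3.3, trended empirical Bayes, Benjamini-Hochberg over all shared regions) on normal scores of ranks, checked on simulated data. Other steps used Python 3.11.15, NumPy 2.4.6, pandas 2.3.3, SciPy 1.17.1 and matplotlib 3.10.9. Named regions were those within 1 kb of Cpt2, the 8 highest ranked per direction by the lower of a region's 2 percentiles, the 8 shared regions with the smallest p per direction, up to 4 regions called in 1 group and 2 shared regions per direction for each list, and the 8 genes with most regions called in 1 genotype. The comparison and its 16 gene lists were chosen with earlier results of these data known. Alternatives were lists of equal length, −log10 q of at least 20, a cover of at least 50% of a region, other ranks, all 8 libraries in the fit, a replicate block, a distance of 5 kb and leaving out each library. Equal-length lists for the gene lists and the difference of the 2 counts were added after seeing the data.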

Additional observations from a re-analysis of the deposited data

How the results depend on the processing

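The counts of regions called in 1 genotype depended on list length and on single libraries. Regions called only in Cpt2 knockout numbered 1798, 739 in lists of equal length and 1097 with a −log10 q of at least 20, and ran from 2479 to 5958 when a library was left out. Those called only in wild type numbered 254, then 584 and 79, and from 600 to 2663. Leaving out a library makes the rule easier to meet, since 1 library then decides for its genotype. The excess in the knockout direction was 1544, 155 in lists of equal length and 1018 with the stricter q. It ran from −184 (without wild type 1) to 5221 when a library was left out, where the 2 sets follow unlike rules. A cover of 50% kept the counts within 1.5 times. The difference in peak number kept its direction under its alternatives (1461 to 8869).

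For shared regions, no region passed higher or lower in limma with percentile ranks, a −log10 q of at least 20, a cover of 50% or all 8 libraries. The Slc5a7 region alone passed (1 higher) with ranks of fold, with the replicate block and without wild type 2. Over the fits without 1 library, regions higher numbered 0 to 103 and lower 0 to 151, the most without Cpt2 knockout 1. A fit with 1 library in a group assumes that it varies like the other group. With the replicate number as a block, 1 region was higher (limma adjusted p = 0.0377) and 0 lower. Deviations of same-numbered libraries from their group means correlated at 0.054. With 2 libraries a group the 2 pairs mirror each other and give the same value. It is a single estimate, and it does not show a pairing. Of 34 counts over all regions and the 16 lists recomputed in lists of equal length, 24 moved by over 1.5 times. Of the same 34 counts limited to 5 kb, 12 did. Depth per library is unknown, so no limit on weak peaks can be given.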
